A study of Homo sapiens with 6 samples.

Results

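Fatty acids and acetate enter metabolism only after they have been joined to coenzyme A, and 10 human genes for enzymes that do this were followed in M14 melanoma cells. They were ACSL1, ACSL3, ACSL4 and ACSL5, which encode long-chain acyl-CoA synthetases, ACSS1 and ACSS2, which encode acetyl-CoA synthetases, and SLC27A1, SLC27A2, SLC27A3 and SLC27A4, which encode fatty acid transport proteins. The genes were taken by name, as those of the listed synthetases and transporters that had a row among the 26748 genes of the deposited table. The list was drawn up with results of this comparison known, so the members were in part chosen by the differences described here. Those differences are therefore given as a description, with no p for any single member. M14, an established human melanoma line, was grown without attachment as melanospheres, multicellular clusters that float in the medium (3D, 3 libraries), and as conventional adherent cells (2D, 3 libraries). Poly(A) RNA was sequenced from each library, and the labels give no other treatment and no genetic change in either culture. Both cultures are of a single line, so the values describe that line.

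Long-chain acyl-CoA synthetases sit on the endoplasmic reticulum, the outer mitochondrial membrane, lipid droplets and peroxisomes, and the acyl-CoA they make is used for phospholipids, triglycerides, sterol esters, protein acylation or oxidation. ACSL3 is known for lipid droplet formation, ACSL4 for its preference for arachidonate and other polyunsaturated fatty acids and for its part in ferroptosis, and ACSL1 for fatty acid activation in fat, heart and liver. ACSS2 makes acetyl-CoA from acetate in the cytosol and nucleus, and ACSS1 does so in mitochondria. SLC27 proteins promote fatty acid uptake and are themselves acyl-CoA synthetases, several of them with very-long-chain fatty acids as substrate.

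Each library held 16567763 to 19954987 reads on genes. The values are read counts divided by 1 size factor per library, here called normalised counts. The library 2D replicate 3 stood apart: the first principal component (68.4% of variance) placed it at -24.7, 3D libraries at 59.3 to 73.9, and its 2D partners at -94.7 and -84.4. The share of reads from mitochondrially encoded genes was 4.28% to 5.76% in 3D and 0.528% to 1.49% in 2D. Of 8 pigment cell markers, 3 had a mean of at least 10 normalised counts. MITF, the melanocyte lineage factor, averaged 288 ± 19.0 in 3D and 1131 ± 215 in 2D (SD, n = 3 each), and DCT, a melanin synthesis enzyme, 0.619 ± 1.07 in 3D and 70.01 ± 42.4 in 2D. Both fell (log2 changes -1.95 and -5.48, limma adjusted p = 0.00077 and 0.0014). PMEL, a melanosome matrix protein, averaged 1071 ± 398 in 3D and 434 ± 280 in 2D and did not pass (adjusted p = 0.053). MLANA, TYR, TYRP1, SOX10 and S100B averaged 0.323 to 8.26 in 3D and 5.13 to 16.1 in 2D. The melanoma label could therefore be checked against few transcripts, since 5 of the 8 markers were near absent. The summed pigment markers ran from 910 to 1666 in 3D and from 1596 to 1873 in 2D. The 4 epithelial markers with a row summed to 3134 to 3569 in 3D and 3872 to 6680 in 2D. Most of this was KRT19, at 3193 ± 255 in 3D and 4577 ± 1470 in 2D, which did not pass (limma adjusted p = 0.16). CDH1 fell, at 5.62 ± 2.74 in 3D and 92.3 ± 20.2 in 2D (log2 change -3.89, adjusted p = 0.0012). EPCAM fell too, at 172 ± 35.8 in 3D and 423 ± 55.8 in 2D (log2 change -1.31, adjusted p = 0.0074). KRT5 was too low to test, at 6.53 in 3D and 0.318 in 2D on average. The fibroblast markers, nearly all COL1A1, summed to 4303 to 4818 in 3D and 1536 to 4254 in 2D. Endothelial markers summed to 138 to 187 in 3D and 39.5 to 318 in 2D. Among them PECAM1 rose, at 117 ± 32.6 in 3D and 3.08 ± 5.34 in 2D (log2 change 5.72, adjusted p = 0.0040), and CDH5 was at 19.5, 21.3 and 21.7 in 3D and 25.7, 13.9 and 268 in 2D, with the highest value in 2D replicate 3. VWF was at 17.7 ± 7.43 in 3D and 31.0 ± 8.41 in 2D (log2 change -0.82). Neither CDH5 (log2 change -1.12) nor VWF passed. KDR was too low to test, at 0 in 3D and 0.712 in 2D on average. Leukocyte markers summed to 63.0 to 128 in 3D and 21.0 to 63.7 in 2D, and hepatocyte and adipocyte markers to 10.7 to 15.8 in 3D and 3.08 to 10.5 in 2D, with PTPRC, the pan-leukocyte antigen, at 0.646 in 3D and 2.74 in 2D on average. The part of these shifts in the results was not tested. In bulk RNA, fewer cells of a kind and less RNA per cell cannot be told apart.

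The upstream sequences of the members with the largest difference in each direction are shown because 2 of these genes, ACSL1 and ACSS2, had nearly equal differences, and because ACSL1 has several start sites that differ in motif content. They are the 250 bases before a RefSeq transcript start (GRCh38.p14), 5′ to 3′ on the gene's strand. For ACSL1 they are starts 1 and 3 of the 5 listed (chr4:184825969-184826218 and chr4:184805554-184805803, minus strand), for ACSS2 the first of 2 (chr20:34874739-34874988, plus strand) and for SLC27A2 the only one (chr15:50181946-50182195, plus strand). Capitals mark GC boxes (GGGCGG), inverted CCAAT boxes (ATTGG) and the sterol regulatory element core (TCACNCCAC), on either strand.
ACSL1, start 1: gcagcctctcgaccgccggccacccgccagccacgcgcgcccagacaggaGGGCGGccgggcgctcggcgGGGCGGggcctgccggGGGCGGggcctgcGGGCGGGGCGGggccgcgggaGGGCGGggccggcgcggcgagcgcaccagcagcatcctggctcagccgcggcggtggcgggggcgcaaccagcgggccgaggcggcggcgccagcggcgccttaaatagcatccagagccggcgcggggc
ACSL1, start 3: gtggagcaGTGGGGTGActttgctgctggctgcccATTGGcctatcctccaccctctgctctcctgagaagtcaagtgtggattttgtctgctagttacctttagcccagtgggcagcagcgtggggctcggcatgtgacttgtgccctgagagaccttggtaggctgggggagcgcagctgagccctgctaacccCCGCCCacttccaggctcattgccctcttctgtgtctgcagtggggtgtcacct
ACSS2, start 1: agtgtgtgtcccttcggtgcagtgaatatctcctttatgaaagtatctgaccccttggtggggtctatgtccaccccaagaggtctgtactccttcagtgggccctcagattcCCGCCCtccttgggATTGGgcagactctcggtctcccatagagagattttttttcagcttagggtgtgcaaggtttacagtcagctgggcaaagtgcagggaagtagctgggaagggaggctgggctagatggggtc
SLC27A2: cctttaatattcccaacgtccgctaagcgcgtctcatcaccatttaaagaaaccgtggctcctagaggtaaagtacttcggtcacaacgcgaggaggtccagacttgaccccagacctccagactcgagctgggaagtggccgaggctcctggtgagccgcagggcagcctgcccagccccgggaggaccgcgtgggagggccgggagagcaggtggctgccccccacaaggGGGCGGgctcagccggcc
Start 1 of ACSL1 had 6 GC boxes, with a base shared between 2 of them, and no other motif searched. Start 3, inside the gene, had a sterol element core in reverse orientation to the gene, a CCAAT box and a GC box. It was picked for display because of that core. The ACSL1 starts not shown had none of the motifs searched. Start 1 of ACSS2 had a CCAAT box and a GC box. Its other start, not shown, had GC boxes beginning at -125, -110 and -67 and no CCAAT box. SLC27A2 had a single GC box.

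All 10 members had at least 1 listed start, 17 windows in all, each from 250 bases before to 50 bases after the start. The sterol element core was in 1 of these 17 windows, that of ACSL1 start 3, and in 1.13% of all 35116 windows. Inverted CCAAT boxes were in 4 of 17 windows, of ACSL1, ACSL3, ACSS2 and SLC27A1, and in 34.6% of all. GC boxes were in 11 of 17 windows, which lay at every member but ACSL5, and in 45% of all. The nuclear receptor half-site AGGTCA was in 1 window, at ACSL5, and in 13.8% of all, and the E-box CACGTG in 0 and in 7.26% of all. Both strands were searched, and neighbouring GC boxes could overlap, as at ACSL1 start 1 and at ACSL4, where boxes beginning at -94 and -90 share bases. GC boxes were found at members higher and at members lower in 3D.

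In the spheres the long-chain acyl-CoA synthetases were present in a different mix. ACSL1 and ACSL4 were higher and ACSL3 was lower than in adherent cells, and ACSL5 was close to absent in both.

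ACSL1 (ENSG00000151726, chromosome 4, 184755595 to 184826818, minus strand, GRCh38) had 2208, 2810 and 2259 normalised counts in the 3 3D libraries and 457, 388 and 554 in the 3 2D libraries. Every 3D library was far above every 2D library, and the lowest 3D value was several times the highest 2D value. The means were 2426 ± 334 in 3D and 466 ± 83.7 in 2D (SD, n = 3 each), a ratio of 5.201 and a log2 change of 2.38 (SE 0.19). Leaving out any 1 library gave log2 changes of 2.26 to 2.51. The log2 change was larger than that of 96.7% of the 15598 genes tested.

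ACSL4 (ENSG00000068366, chromosome X, 109624244 to 109733403, minus strand) had 2366, 3665 and 2279 normalised counts in 3D and 1165, 1245 and 1196 in 2D. The groups did not overlap, 3D replicate 2 stood above the other 3D libraries, and the 2D libraries lay close together. The means were 2770.1 ± 776 in 3D and 1202 ± 40.4 in 2D (SD, n = 3 each), a log2 change of 1.17 (SE 0.21). Without 3D replicate 2 the log2 change was 0.95.

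ACSL3 (ENSG00000123983, chromosome 2, 222860934 to 222944639, plus strand) had 2441, 2389 and 2297 normalised counts in 3D and 4396, 4438 and 3636 in 2D. Here the order was the other way round, and every 3D library was below every 2D library. The means were 2375 ± 73.0 in 3D and 4157 ± 451 in 2D (SD, n = 3 each), a log2 change of -0.80 (SE 0.16). The direction held with any library left out, at -0.90 to -0.75.

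ACSL5 (ENSG00000197142, chromosome 10, 112374018 to 112428380, plus strand), an isoform known from the small intestine and liver, had 2.78, 4.85 and 8.26 normalised counts in 3D and 3.81, 0 and 0 in 2D. These were 16 reads over the 3D libraries and 4 over the 2D libraries, the groups overlapped, and the gene fell below the mean of 10 needed for the fit. No difference is read from so few reads.

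**Figure D1:**
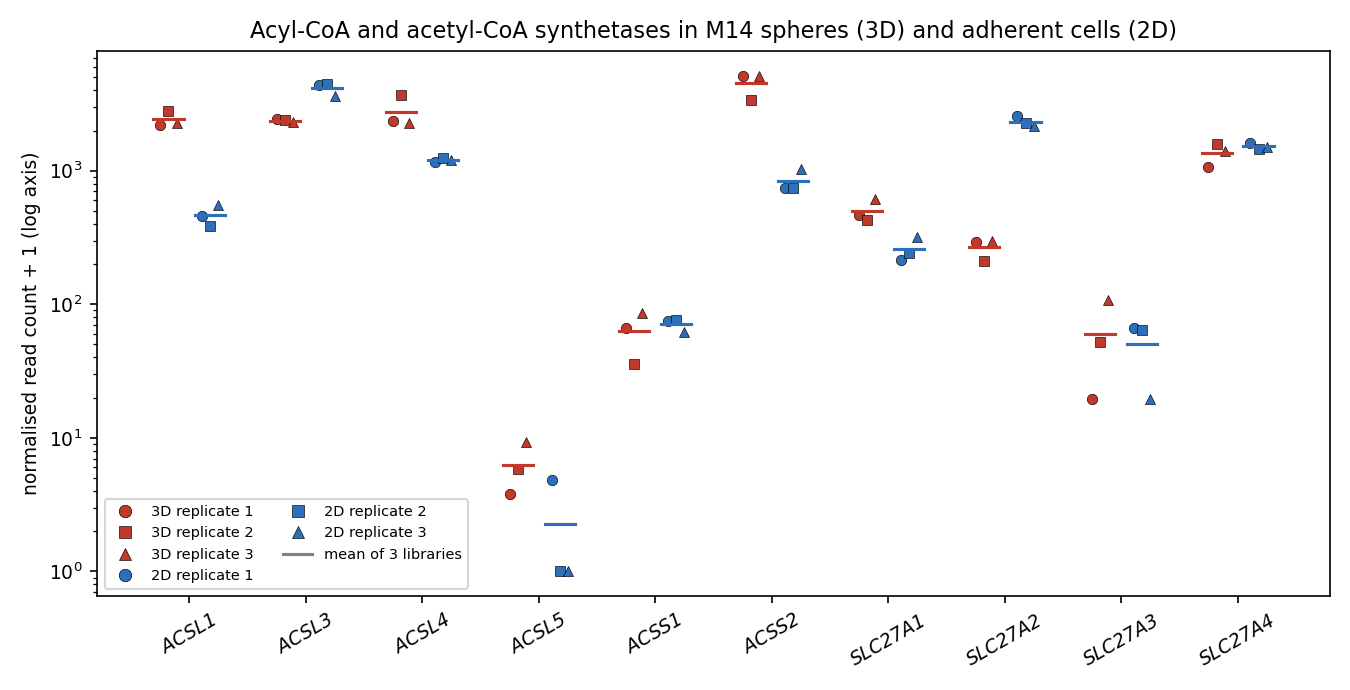
Normalised read count plus 1 (vertical, log axis) of each of the 10 genes in each library, with 3D in red to the left of 2D in blue and a bar at the mean of 3 libraries. ACSL1, ACSL4, ACSS2 and SLC27A1 have all 3D points above all 2D points, ACSL3 and SLC27A2 the reverse, and the other 4 overlap.

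To compare isoforms, levels were divided by the exonic length of each gene. ACSL1 took 33.7% ± 0.918 of the summed ACSL level per kb in 3D and 8.96% ± 2.17 in 2D, and ACSL4 took 37.2% ± 4.47 in 3D and 22.5% ± 1.48 in 2D (SD, n = 3 each). ACSL3 took 24.4% to 31.9% in the 3D libraries and 64.7% to 70.6% in the 2D libraries, where it was the main isoform in each. In 3D no isoform passed 42.3% in any library. The summed ACSL level was 1147 ± 176 normalised counts per kb in 3D and 836 ± 51.3 in 2D (SD, n = 3 each), and every 3D library (1034 to 1350) was above every 2D library (777 to 869). The 3 main isoforms thus differed in direction under a sum that was higher in 3D. With the length of the principal transcript in place of all exons, a choice made after the values were seen, ACSL1 took 39.5%, ACSL4 33.4% and ACSL3 26.9% in 3D, against 10.98%, 20.95% and 68.04% in 2D, so the order of ACSL1 and ACSL4 in 3D depends on the length used.

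Of the acetyl-CoA synthetases, the cytosolic and nuclear enzyme differed between cultures and the mitochondrial enzyme did not differ beyond its spread.

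ACSS2 (ENSG00000131069, chromosome 20, 34872146 to 34927962, plus strand) had 5156, 3363 and 5159 normalised counts in 3D and 747, 736 and 1035 in 2D. Every 3D library was above every 2D library, with 3D replicate 2 the lowest of the 3D libraries and 2D replicate 3 the highest of the 2D libraries. The means were 4559 ± 1036 in 3D and 839 ± 169.8 in 2D (SD, n = 3 each), a ratio of 5.43 and a log2 change of 2.43 (SE 0.23), with 2.33 to 2.64 when 1 library was left out. The log2 change was larger than that of 96.9% of the genes tested.

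ACSS1 (ENSG00000154930, chromosome 20, 25006230 to 25058980, minus strand) had 65.9, 34.9 and 84.6 normalised counts in 3D and 73.4, 74.7 and 60.7 in 2D. The groups overlapped, and the 3D libraries held both the lowest and the highest value. The means were 61.8 ± 25.1 in 3D and 69.6 ± 7.77 in 2D (SD, n = 3 each), a log2 change of -0.25 (SE 0.37) that lay between -0.52 and 0.11 with 1 library left out. The gene rested on 189 reads in 3D and 206 in 2D. Per kb, ACSS2 made up 99.2% ± 0.185 of the pair in 3D and 94.9% ± 1.346 in 2D, so that the mitochondrial enzyme was the minor one in both cultures.

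Among the fatty acid transport proteins, SLC27A2 was much lower in 3D, SLC27A1 was higher, and SLC27A3 and SLC27A4 overlapped between cultures.

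SLC27A2 (ENSG00000140284, chromosome 15, 50182196 to 50236395, plus strand), a very-long-chain acyl-CoA synthetase also called FATP2 and best known from liver and kidney, had 290.4, 211 and 294 normalised counts in 3D and 2548, 2264 and 2161.0 in 2D. Every 3D library was far below every 2D library. The means were 265 ± 46.8 in 3D and 2325 ± 201 in 2D (SD, n = 3 each), 8.76 times as high in 2D, a log2 change of -3.14 (SE 0.19) with -3.22 to -2.98 when 1 library was left out. Only 0.737% of the genes tested had a more negative log2 change. ATP8B4, a phospholipid flippase gene on the opposite strand, overlaps 557 exonic bases of SLC27A2, 19.9% of its exonic length, and the libraries do not mark strand. ATP8B4 averaged 212 ± 55.6 in 3D and 212 ± 32.8 in 2D (SD, n = 3 each). The part of shared reads in the SLC27A2 values was not tested.

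SLC27A1 (ENSG00000130304, chromosome 19, 17468769 to 17506168, plus strand), also called FATP1 and known from muscle and fat, had 468, 425 and 608 normalised counts in 3D and 215, 242 and 317 in 2D. The groups did not overlap, and replicate 3 was the highest library in each culture. The means were 500.1 ± 95.9 in 3D and 258 ± 52.4 in 2D (SD, n = 3 each), a log2 change of 0.95 (SE 0.23), with 0.80 to 1.11 when 1 library was left out.

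SLC27A4 (ENSG00000167114, chromosome 9, 128340646 to 128361470, plus strand), also called FATP4 and needed for the skin barrier, had 1069.8, 1595 and 1393 normalised counts in 3D and 1619, 1449 and 1498 in 2D. The groups overlapped, with means of 1352 ± 265 in 3D and 1522 ± 87.8 in 2D (SD, n = 3 each) and a log2 change of -0.19 (SE 0.19).

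SLC27A3 (ENSG00000143554, chromosome 1, 153774354 to 153780157, plus strand), also called FATP3, had 18.6, 51.4 and 106 normalised counts in 3D and 65.8, 63.0 and 18.5 in 2D. The spread within each culture was wider than the distance between their means, with a log2 change of 0.13 (SE 0.69) that ran from -0.45 to 0.78 with 1 library left out. INTS3, a subunit of the Integrator complex on the same strand, shares 455 exonic bases with it and had 87.2, 605 and 373 in 3D and 458, 494 and 456 in 2D. In 3D, replicate 1 was the lowest library of both genes, and the part of shared reads in this was not tested.

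Per kb, SLC27A2 took 16.1% ± 4.40 of the summed SLC27 level in 3D and 61.0% ± 1.25 in 2D, SLC27A4 72.0% ± 6.09 in 3D and 36.0% ± 1.02 in 2D, and SLC27A1 10.2% ± 1.94 in 3D and 2.33% ± 0.599 in 2D (SD, n = 3 each). The summed level was 601 ± 80.7 normalised counts per kb in 3D and 1359 ± 95.0 in 2D. The larger share of SLC27A4 in 3D went with a lower sum, as its own counts overlapped between cultures.

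**Figure D2:**
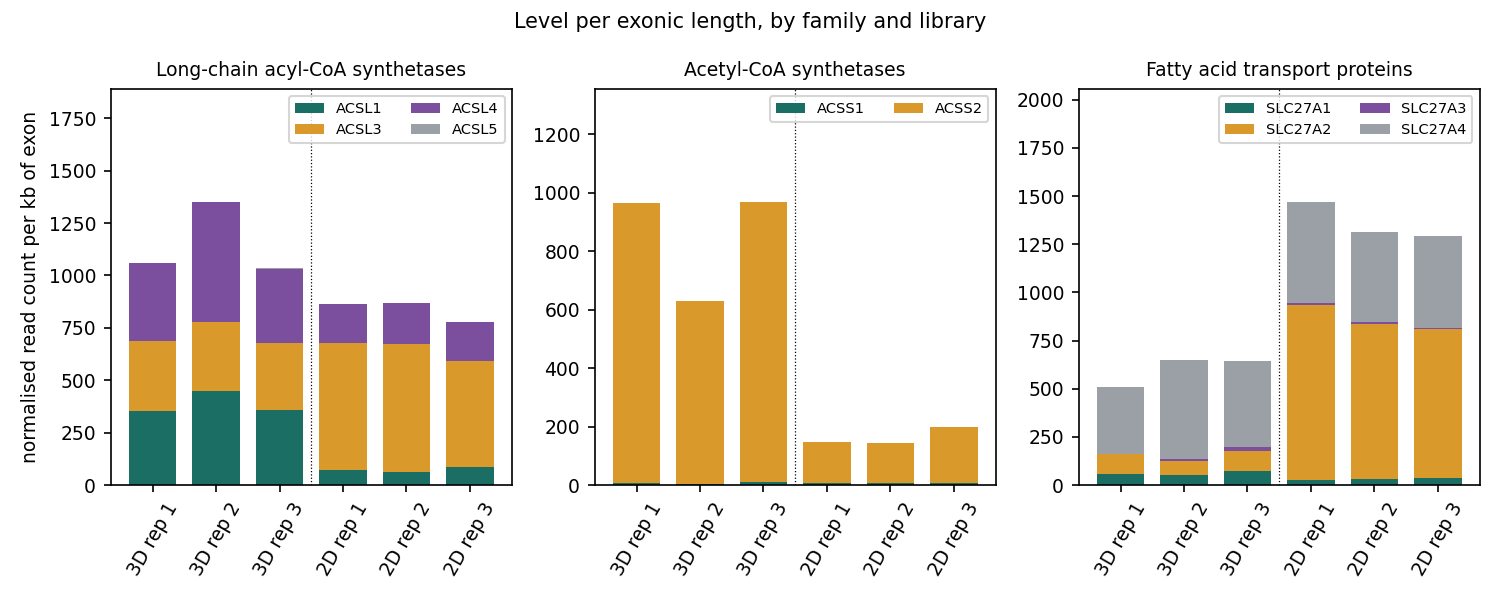
Normalised read count per kb of exon (vertical), stacked by gene, in each library of 3D and 2D, in 1 panel per family. The 3D ACSL bars hold large parts of each of ACSL1, ACSL3 and ACSL4 while ACSL3 fills 64.7% to 70.6% of the 2D bars, ACSS2 fills nearly all of its panel, and SLC27A2 is the main block in the 2D libraries only.

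Across all 10 genes the order of levels per kb of exon differed between cultures. In 3D, ACSS2 came first with 847 ± 192 normalised counts per kb, above SLC27A4 with 435 ± 85.1, ACSL4 with 432 ± 121, ACSL1 with 386 ± 53.1 and ACSL3 with 328 ± 10.1 (SD, n = 3 each). The libraries of SLC27A4 and ACSL4, and of ACSL4 and ACSL1, overlapped, so the order within these neighbours is not beyond their spread. Below these came SLC27A2 with 94.7 ± 16.7, SLC27A1 with 60.6 ± 11.6, SLC27A3 with 10.7 ± 8.11, ACSS1 with 7.11 ± 2.89 and ACSL5 with 1.25 ± 0.65, of which SLC27A3 and ACSS1 overlapped. In 2D, SLC27A2 came first with 829.6 ± 71.6, followed by ACSL3 with 574 ± 62.3, SLC27A4 with 489 ± 28.2, ACSL4 with 187 ± 6.29, ACSS2 with 156 ± 31.5, ACSL1 with 74.2 ± 13.3 and SLC27A1 with 31.3 ± 6.36 (SD, n = 3 each). The lowest in 2D were SLC27A3 with 8.97 ± 4.85, ACSS1 with 8.01 ± 0.893 and ACSL5 with 0.300 ± 0.520. Neighbours that overlapped in 2D were ACSL3 and SLC27A4, ACSL4 and ACSS2, and SLC27A3 and ACSS1. ACSS2 was first in 3D and SLC27A2 first in 2D under both lengths. With principal transcript lengths SLC27A1 stood above SLC27A2 in 3D, at 139.1 against 110.8 normalised counts per kb. SLC27A1 then took 19.3% of the summed SLC27 level in 3D and 4.59% in 2D. With these lengths the order in 3D was also ACSL1, ACSL4 and SLC27A4, at 614, 519 and 447, the reverse of that per kb of exon. In 2D, ACSS2 stood above ACSL4, at 274 against 225.

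Of the 10 members, 9 passed the filter on low values and 6 passed an adjusted p of 0.05 in the fit over all genes (limma, Benjamini-Hochberg), a threshold passed by 24.1% of all genes tested. Of these, 4 were higher in 3D, a call made for 12.5% of all genes, and 2 were lower, a call made for 11.6%. The 3D and 2D libraries did not overlap for 6 of the 9 tested members, and for 43.1% of all genes. Because the members were selected on this comparison, nothing is read from these counts or from their stability. The median log2 change was 0.13 over the 9 members and -0.02 over all genes, and the median absolute log2 change was 0.95 and 0.50. With 1 library left out the number of members past the threshold was 4 to 6.

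The 2D library that stood apart was intermediate for some members and not for others. In 2D replicate 3 against the mean of the other 2D libraries, the log2 level was 0.40 higher for ACSL1, 0.48 higher for ACSS2 and 0.47 higher for SLC27A1, and differed by -0.28 for ACSL3, -0.15 for SLC27A2, -0.03 for SLC27A4, -0.01 for ACSL4, -0.28 for ACSS1 and -1.74 for SLC27A3. For ACSL1, ACSS2, SLC27A1, ACSL3 and SLC27A2 the shift was toward the 3D level. So were the shifts of ACSS1 and SLC27A4, whose cultures overlapped, while that of ACSL4 was not. The largest shift in size was that of SLC27A3, a gene whose libraries also spread widely in 3D. In 2D replicate 3 SLC27A3 went in the 3D direction and past the 3D mean, which lay at -0.45 from the other 2D libraries. Without that library the log2 changes of 3D over 2D were 2.51 for ACSL1, 2.59 for ACSS2, 1.11 for SLC27A1, -0.90 for ACSL3, -3.19 for SLC27A2 and 1.17 for ACSL4, so each was at least as large in size as with it, apart from ACSL4, which was unaltered at this precision.

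**Figure D3:**
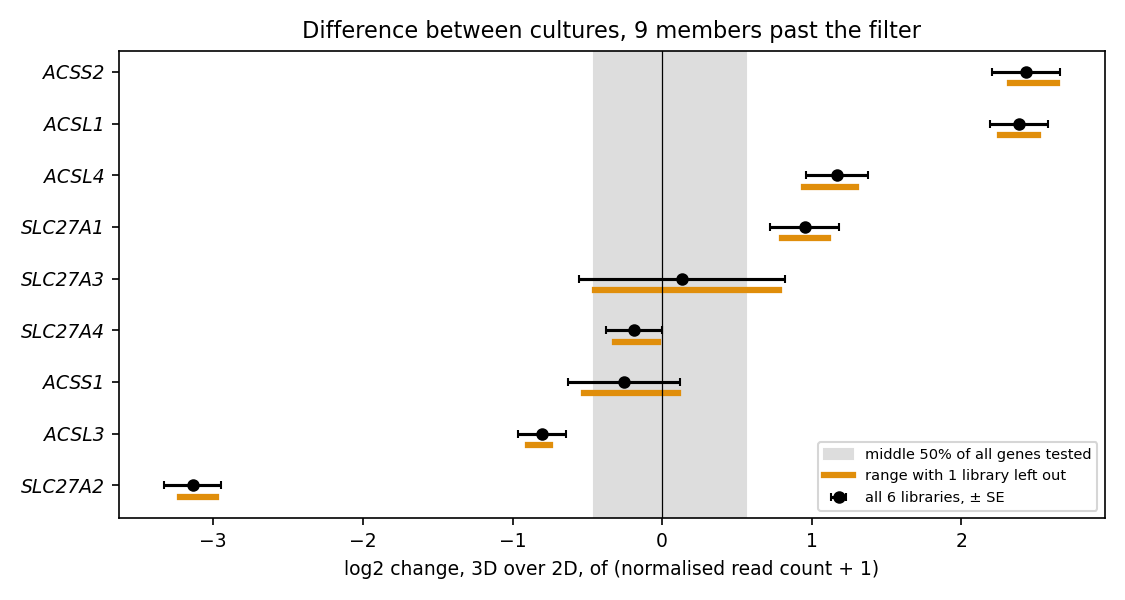
Log2 change of 3D over 2D, on the log2(normalised count + 1) scale (horizontal), of the 9 genes past the filter on low values, with its standard error in black and the range over fits with 1 library left out in orange, and a grey band for the middle 50% of all genes tested. ACSS2 (2.43), ACSL1 (2.38), ACSL4 (1.17) and SLC27A1 (0.95) lie to the right of the band, ACSL3 (-0.80) and SLC27A2 (-3.14) to its left.

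The genes whose profile over the 6 libraries lay closest to ACSL1 and to ACSS2 were found by the Euclidean distance between log2(value + 1), centred per gene, over 11094 genes with a mean of at least 100. Nearest to ACSL1 was SELENOW, a small selenoprotein, at a distance of 0.118, with 1543, 1876 and 1529.8 normalised counts in 3D and 316, 276 and 409 in 2D. DNAH17-AS1 at 0.330, NFE2 at 0.341, VAV3 at 0.409 and YPEL2 at 0.421 followed. Nearest to ACSS2 was HEY1, a Notch target, at 0.281, with 569.7, 358 and 482 in 3D and 67.7, 73.7 and 91.5 in 2D. CEACAM16-AS1 at 0.315, TNFRSF25 at 0.319, TNIK at 0.447 and MME at 0.490 followed. The profiles of ACSL1 and ACSS2 parted in 3D replicate 2, the highest of the 3D libraries for ACSL1 and the lowest for ACSS2. These distances are over 6 libraries that share the split into 2 cultures.

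The surroundings of acyl-CoA were followed in 10 lists of 124 genes, of which 106 had a row and 90 were tested. Of these, 17 rose and 11 fell in 3D (limma, adjusted p under 0.05), beside 12.5% and 11.6% of all genes. Their median log2 change was 0.22. The counts leaned on the libraries, with 32 that rose and 17 that fell when 2D replicate 3 was left out. They were 6 and 7 on leaving out 2D replicate 1, 8 and 6 for 2D replicate 2, 5 and 5 for 3D replicate 1, 10 and 8 for 3D replicate 2, and 4 and 5 for 3D replicate 3. With libraries scaled to equal totals, 22 rose and 8 fell.

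Of 6 other acyl-CoA synthetases tested, 2 rose and 0 fell (limma; edgeR and DESeq2 also called 2 and 0, as did an unadjusted p under 0.05). SLC27A5, a bile acid and very-long-chain acyl-CoA synthetase of the liver, had 455, 448 and 516 normalised counts in 3D and 116, 80.1 and 276 in 2D, a log2 change of 1.78 (SE 0.41, adjusted p = 0.0173), and AACS, which activates acetoacetate in the cytosol, averaged 1313 ± 120.0 in 3D and 829 ± 182 in 2D (adjusted p = 0.0377). ACSF2 (1231 ± 305 in 3D and 845 ± 187 in 2D) and ACSF3, a malonyl-CoA synthetase (699 ± 110.3 in 3D and 805 ± 150.4 in 2D), did not pass. Of the fatty acid uptake and acyl-CoA binding genes, 3 rose and 1 fell of 9 tested in limma. With edgeR and with DESeq2, 4 were called higher and 1 lower, and a limma unadjusted p under 0.05 gave 5 and 2. DBI, the acyl-CoA binding protein, had 2951, 4362 and 3150.5 in 3D and 699, 587 and 2086 in 2D, a log2 change of 1.85 (SE 0.43, adjusted p = 0.0185). The fatty acid binding proteins FABP5 (1377 ± 186 in 3D and 628 ± 294 in 2D, log2 change 1.22) and FABP3 (1093 ± 143 in 3D and 578 ± 228 in 2D, 0.98) also rose. Of the 75-base windows of FABP5, 16.8% occur in other genes, mainly FABP5P7, and of those of SLC27A5, 12.6%, mainly ZNF446. ACBD6 fell, at 906 ± 53.6 in 3D and 1306 ± 84.9 in 2D, but 21.8% of its 75-base windows also occur in LHX4. ACBD3 and SCP2 did not pass in limma, with log2 changes of -0.44 and 0.94. SCP2 was near the threshold in limma (adjusted p = 0.0529) and passed in edgeR (adjusted p = 0.0454) and DESeq2 (adjusted p = 0.0131). Of its windows, 17.9% occur in other genes. CD36, a fatty acid translocase, was too low to test, at 2.92 in 3D and 0.318 in 2D on average. For SLC27A5, DBI, FABP3 and FABP5 alike, 2D replicate 3 was the highest 2D library.

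The users of acyl-CoA differed among themselves. Of the 7 carnitine shuttle genes, 0 passed the threshold in limma with all libraries, 2 rose without 2D replicate 3, 2 were higher at an unadjusted p under 0.05, edgeR called 0 and DESeq2 called 2. CPT1A, which commits long-chain acyl-CoA to mitochondrial oxidation, averaged 3761 ± 109.7 in 3D and 3023 ± 62.3 in 2D, and CRAT, the carnitine acetyltransferase, 944 ± 135 in 3D and 568 ± 190.8 in 2D. Of 15 glycerolipid and sterol ester acyltransferases tested, 1 rose and 2 fell in limma and in edgeR. DESeq2 called 3 higher and 2 lower, as did a limma unadjusted p under 0.05. LPCAT4, a lysophospholipid acyltransferase, had 2450.4, 1609 and 2654 normalised counts in 3D and 291, 301 and 791 in 2D, a log2 change of 2.41 (SE 0.39, adjusted p = 0.0048). AGPAT3 fell, with 376, 257 and 413 in 3D and 1137, 1139 and 1145 in 2D, a log2 change of -1.74 (SE 0.21, adjusted p = 0.0016), and SOAT1, which esterifies cholesterol, averaged 1469.9 ± 99.9 in 3D and 2886 ± 813 in 2D (adjusted p = 0.0164). AGPAT2 and GPAT4 did not pass, with log2 changes of 0.28 and -0.27. Of 11 thioesterases, which undo the synthetase reaction, 1 rose and 1 fell in limma, while edgeR called 0 higher and 1 lower. DESeq2 called 1 higher and 1 lower, and a limma unadjusted p under 0.05 gave 2 and 1. ACOT1 averaged 373 ± 88.5 in 3D and 134 ± 110.3 in 2D but shares 41.6% of its windows with ACOT2, which did not pass (898 ± 116 in 3D and 1279 ± 293 in 2D), so its level is uncertain, and its adjusted p was 0.0351 in limma and 0.0579 in edgeR. ACOT4 fell (42.2 ± 10.9 in 3D and 98.5 ± 24.8 in 2D), and ACOT9 did not pass.

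Chain building and acetate use lie on either side of ACSL1 and ACSS2, since synthetases activate the free fatty acids that fatty acid synthase produces, elongases and desaturases act on acyl-CoA, and acetyl-CoA is the starting material of synthesis. Of 13 chain-building, elongation and desaturation genes tested, 5 rose and 3 fell in limma and in edgeR. DESeq2 called 5 higher and 4 lower, and a limma unadjusted p under 0.05 gave 5 and 5. FASN, the fatty acid synthase, had 38729, 38704 and 43048 normalised counts in 3D and 6696, 9147 and 19879 in 2D, a log2 change of 1.91 (SE 0.37, adjusted p = 0.0094), and the elongase ELOVL6 averaged 1672 ± 48.2 in 3D and 509 ± 116 in 2D (log2 change 1.74, adjusted p = 0.0011). The elongase ELOVL7 (197 ± 39.8 in 3D and 604 ± 36.1 in 2D, log2 change -1.63, adjusted p = 0.0020) and the delta-6 desaturase FADS2 (944 ± 126 in 3D and 2267 ± 429 in 2D, -1.25, adjusted p = 0.0048) fell. FADS1 and FADS3 did not pass, with log2 changes of 0.25 and -0.64. The others that passed, named after their values were seen, were the stearoyl-CoA desaturases SCD (41344 ± 2221 in 3D and 19726 ± 3057 in 2D, adjusted p = 0.0102) and SCD5 (936 ± 97.8 in 3D and 581 ± 154 in 2D, adjusted p = 0.0447) and the acetyl-CoA carboxylase ACACB, which rose, and the elongase ELOVL3, which fell.

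Of 9 acetate and acetyl-CoA genes tested, 2 rose and 1 fell in limma, while edgeR called 1 higher and 1 lower. DESeq2 called 3 higher and 1 lower, and a limma unadjusted p under 0.05 gave 5 and 2. ACLY, which makes cytosolic acetyl-CoA from citrate and so supplies the same pool as ACSS2, had 9244, 9747 and 10001 normalised counts in 3D and 2709, 2690.1 and 7592 in 2D, a log2 change of 1.34 (SE 0.37, limma adjusted p = 0.0333; edgeR adjusted p = 0.0535). SIRT1, a deacetylase known to activate the cytosolic acetyl-CoA synthetase, averaged 907 ± 152 in 3D and 2163 ± 436 in 2D (log2 change -1.25, adjusted p = 0.0063). ACAT2, an acetyl-CoA acetyltransferase of the sterol pathway, averaged 2451 ± 634 in 3D and 596 ± 487 in 2D (adjusted p = 0.0117), but 48.7% of its windows occur in other genes, mainly SOD2-OT1, so its level is uncertain. The lactate exporter gene SLC16A3 and PDHA1, a pyruvate dehydrogenase subunit, did not pass, with log2 changes of 0.26 and 0.59.

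Of 7 genes of sterol regulatory element binding protein control, 1 rose and 1 fell in limma and in edgeR. DESeq2 called 2 higher and 1 lower, as did a limma unadjusted p under 0.05. INSIG1, which holds the precursor in the endoplasmic reticulum and is itself a target of the pathway, had 6969, 4899 and 5885 normalised counts in 3D and 454, 401 and 1347 in 2D, a log2 change of 3.22 (SE 0.42, adjusted p = 0.0020). MBTPS2, a protease that releases the active factor, averaged 1118 ± 137 in 3D and 1890.1 ± 376 in 2D (log2 change -0.74, limma adjusted p = 0.0311). Of its windows, 11.8% occur in other genes, mainly YY2. SREBF1 (5407 ± 566 in 3D and 4896 ± 804 in 2D) and SREBF2 (6388 ± 792 in 3D and 6901 ± 763 in 2D), which encode the factors, did not pass. Of 6 PPAR and retinoid X receptor genes tested, PPARD (856 ± 101 in 3D and 459 ± 39.2 in 2D, adjusted p = 0.0107) and PPARG (378 ± 52.3 in 3D and 219.9 ± 28.7 in 2D, adjusted p = 0.0320) rose and 0 fell in limma, edgeR and DESeq2, with 1 lower at an unadjusted p under 0.05. RXRA and PPARA did not pass, with log2 changes of -0.41 and 0.57.

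ACSL4 supplies the polyunsaturated acyl-CoA that ferroptosis needs, and of 9 genes of polyunsaturated phospholipid peroxidation tested, 0 rose and 2 fell. With an unadjusted p under 0.05 or with edgeR 0 and 2 did so, and with DESeq2 0 and 3. AIFM2, a coenzyme Q reductase that protects against lipid peroxidation, had 533, 590.4 and 566 normalised counts in 3D and 1675, 1511 and 1225 in 2D, a log2 change of -1.37 (SE 0.18, adjusted p = 0.0020). SLC7A11, the cystine importer, had 1195, 2295 and 921 in 3D and 3532, 4737 and 3343 in 2D, a log2 change of -1.49 (SE 0.32, adjusted p = 0.0140). GPX4, which reduces lipid peroxides, averaged 4103 ± 263 in 3D and 4144 ± 564 in 2D, and TFRC, the transferrin receptor, did not pass.

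Of the 28 pathway calls, 9 held with any 1 library left out, namely LPCAT4, AGPAT3, ELOVL6, ELOVL7, FADS2, SIRT1, ACAT2, INSIG1 and AIFM2. Those of AACS, DBI, FABP3, FABP5, ACBD6, ACOT1, ACOT4, ELOVL3, SCD5, ACLY and PPARG held only where 2D replicate 3 was the library left out. FASN was lost without 3D replicate 3 alone (adjusted p = 0.0502). The calls of SLC27A5 and PPARD each failed in 3 of the 6 fits, those without 2D replicate 1, 3D replicate 1 and 3D replicate 3, with adjusted p up to 0.0760 and 0.0613. That of SLC7A11 failed in 3 fits (2D replicate 2, 3D replicate 1 and 3D replicate 3 left out; up to 0.0612). SOAT1 and SCD each failed in 2 fits, those without 3D replicate 1 and without 3D replicate 3 (adjusted p up to 0.0712 and 0.0543). MBTPS2 and ACACB each failed in 4 of the 6 fits (up to 0.126 and 0.141).

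**Figure D4:**
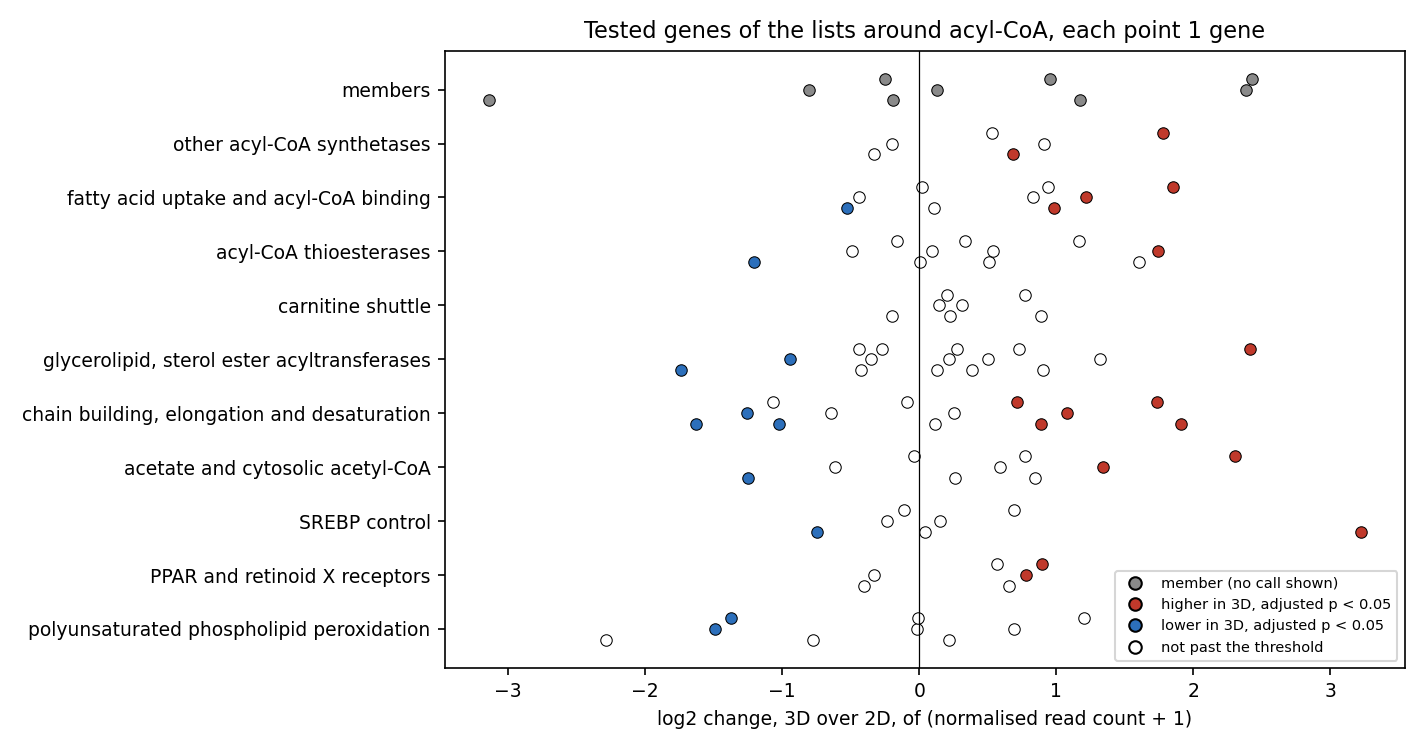
Log2 change of 3D over 2D, on the log2(normalised count + 1) scale (horizontal), of each tested gene, 1 point per gene, for the 9 members in the top line (grey) and for the 10 lists below it. In the lists, red points passed the threshold as higher in 3D, blue points as lower and open points did not pass, and the lists hold 17 red and 11 blue points on both sides of 0.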

How the data were processed

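Group and replicate number of each of the 6 libraries came from the titles. Per the labels' protocols, library preparation from poly(A) RNA used an Illumina TruSeq RNA kit (v2), which does not mark strand. The tools named, per the submitters' processing notes, are HISAT2, DESeq2 and featureCounts 1.5.0, on GRCh38. The deposited table holds a signal per gene, in which the authors scaled the read counts of a library by a single factor, since 100% of the values return to whole reads (tolerance 0.01 of a read). The table's 6 empty columns were left out. A name table gave symbols to 26506 genes, and coordinates and exonic lengths came from GENCODE 29 (GRCh38).

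The 15598 genes averaging 10 or more normalised counts were tested with limma 3.58.1 (R 4.3.3; lmFit, eBayes with trend) on log2(value + 1), without covariates beside culture. P-values were adjusted by Benjamini-Hochberg over all genes, threshold 0.05. Fold changes on this scale understate those of low genes. The labels do not say whether replicates were separate cultures, so p-values reflect only how these libraries vary, in part perhaps technically. edgeR 4.0.16 (3657 calls) and DESeq2 1.42.0 were run on the recovered whole reads as alternatives, with other pseudocounts, filters and scalings, a replicate block, eBayes in its robust form and each library left out. The members, lists, tests and alternatives were chosen with earlier results of these data known. The rule named every member, of each list up to 4 genes past the threshold with the largest change and up to 2 others with the highest level, 5 genes nearest to ACSL1 and to ACSS2, and markers by list. Windows of 75 bases were compared between GENCODE transcripts. The fit was tested on simulated counts.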

Additional observations from a re-analysis of the deposited data

How the results depend on the processing

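With 1 library left out, the number of genes called ran from 1190 (without 3D replicate 3) to 7111 (without 2D replicate 3) against 3766 with all, the pathway genes called from 9 to 49 against 28, and the members called from 4 to 6 against 6. Over the other alternatives the members called stayed at 6, and DESeq2 called 4724 genes and 36 pathway genes. Scaling to equal totals moved the median log2 change of all genes to 0.11, with -0.02 as deposited, and the split to 2392 higher and 1253 lower, with 1950 and 1816 as deposited. The pathway split then was 22 and 8, with 17 and 11 as deposited, and ACSL3 was at -0.67. Deviations of same-numbered libraries from their culture means correlated at -0.084, -0.139 and 0.045. With 3 libraries per culture, these correlations cannot show whether the replicate numbers pair the libraries. With the replicate block, 3222 genes, 26 pathway genes and 6 members were called, and not every library correlated best with its own number. ACSS1 turned to 0.11 without 3D replicate 2, and SLC27A3 to -0.45 without 2D replicate 3 or 3D replicate 3, both without a call in any setting. Few reads limit ACSL5 (16 in 3D and 4 in 2D), and the spread between libraries limits SLC27A3 (18.6 to 106 in 3D).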
